A study of Mus musculus with 26 samples.

Results

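The heat shock proteins and their cochaperones were followed as 1 group of genes across 26 mouse brain arrays. Members were the genes whose symbol in the platform annotation begins with Dnaj, Hspa, Hspb, Hsph, Hsp90, Hspd or Hspe, or is Cct or Bag followed by a number, which gave 87 of 18194 genes with a probe set of their own. A member with several probe sets was read from the one brightest on average. Of the 87 members, 79 had a mean log2 value at or above the filter of 4.333, the 30th percentile of all probe sets, and entered the tests, as did 14941 of all 18194 genes. The members comprised 27 Dnajc, 13 Dnajb and 4 Dnaja genes, 13 Hspa genes, 1 Hsph gene, 2 Hsp90 genes, 9 Cct genes, 2 mitochondrial chaperonin genes, 6 Bag genes and 10 genes whose symbol begins with Hspb. Of these 10, Hspbp1, Hspbap1 and Hspb11 share only their spelling with the small heat shock proteins.

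The arrays came from aged mice carrying an APP transgene, a model of Alzheimer's disease, and from non-transgenic mice. In APP mice a lentivirus was delivered to the entorhinal cortex that encoded either the growth factor BDNF or green fluorescent protein (GFP), and non-transgenic mice received the GFP lentivirus or a sham lesion. Entorhinal cortex and hippocampus were taken 4 weeks later. Each region was represented by 4 arrays of APP mice given BDNF, 4 of APP mice given GFP, 2 of non-transgenic mice given GFP and 3 of sham-operated non-transgenic mice, labelled as biological replicates. No non-transgenic mouse received BDNF and no APP mouse was sham-operated, so BDNF was compared within APP mice only. The sources used here do not give the promoter that drives the APP transgene, the strain or the exact age. Values were log2 RMA signals, a scale on which a difference of 1 is a doubling, and levels were compared between arrays for 1 gene, never between genes.

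Chaperones bind unfolded or newly made proteins and release them in cycles of ATP use. Hsp70 proteins (the Hspa genes) take their substrates from J-domain proteins (Dnaja, Dnajb and Dnajc), which also speed ATP hydrolysis. Hsp70 proteins are reset by nucleotide exchange factors, among them several Bag proteins, Hspbp1 and the larger Hsp70 relatives Hspa4, Hspa4l and Hsph1. Hsp90 proteins fold kinases and receptors, small heat shock proteins (Hspb) hold unfolded proteins, and the Cct subunits form the ring chaperonin that folds actin and tubulin. Many of these genes are induced by the heat shock factor Hsf1, and the endoplasmic reticulum members by the unfolded protein response. Chaperones are much studied in Alzheimer's disease because Hsp70, Hsp90 and their cochaperones act on tau and on amyloid peptides.

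Heat shock factors bind repeats of the unit GAA in alternating orientation. Stretches upstream of Dnajc21, Dnajc13, Dnajc10 and Hspd1 overlap annotated neighbouring genes and are not shown. Those of 4 stress-inducible or chaperonin members named in the results below are shown. They are the 250 bases before the RefSeq start of each gene (the most upstream where several are listed) on GRCm38.p6, 5′ to 3′ on the gene's strand, with the searched pair GAANNTTC or TTCNNGAA in capitals. Hspa1a lies on the minus strand at chr17:34972157-34972406, its neighbour Hspa1b on the minus strand at chr17:34959239-34959488, Bag3 on the plus strand at chr7:128523333-128523582 and Cct5 on the minus strand at chr15:31601847-31602096.
Hspa1a: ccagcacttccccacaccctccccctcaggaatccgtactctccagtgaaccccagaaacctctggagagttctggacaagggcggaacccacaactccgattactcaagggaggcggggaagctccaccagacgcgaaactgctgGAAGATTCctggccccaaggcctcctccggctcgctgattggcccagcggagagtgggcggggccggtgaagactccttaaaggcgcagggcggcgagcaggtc
Hspa1b: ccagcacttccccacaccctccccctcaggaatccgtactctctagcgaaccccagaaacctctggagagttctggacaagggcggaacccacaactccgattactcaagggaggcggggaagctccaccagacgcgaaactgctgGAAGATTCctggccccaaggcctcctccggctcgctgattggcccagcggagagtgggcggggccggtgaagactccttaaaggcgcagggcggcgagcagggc
Bag3: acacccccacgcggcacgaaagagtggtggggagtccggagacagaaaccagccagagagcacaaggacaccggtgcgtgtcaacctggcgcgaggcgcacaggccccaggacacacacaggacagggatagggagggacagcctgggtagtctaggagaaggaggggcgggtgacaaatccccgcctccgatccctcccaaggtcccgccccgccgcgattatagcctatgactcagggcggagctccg
Cct5: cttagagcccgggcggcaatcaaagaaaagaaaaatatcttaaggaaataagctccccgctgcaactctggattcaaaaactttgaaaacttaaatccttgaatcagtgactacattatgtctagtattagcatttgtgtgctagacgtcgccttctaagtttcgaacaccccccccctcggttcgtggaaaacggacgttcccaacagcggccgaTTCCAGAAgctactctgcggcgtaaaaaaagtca
The Hspa1a and Hspa1b windows were identical at 247 of 250 bases (98.8%), and both held GAAGATTC at positions -104 to -97 from the start. These genes encode nearly the same inducible Hsp70, their transcripts are near-identical copies, and their probe sets may share signal, so neither gene's value is certain. The Cct5 window held TTCCAGAA at positions -34 to -27, and the Bag3 window held no match. A RefSeq promoter was at hand for 72 of 87 members, matched by symbol, and 17 of the 72 (23.6%) held the 2-unit motif, against 14.5% of 27025 genes. The 3-unit form, GAANNTTCNNGAA or TTCNNGAANNTTC on either strand, was found in 3 members (4.17%), Dnajb6, Hspd1 and Hspe1, against 0.514% of genes. Hspd1 and Hspe1 lie beside each other, so the same site may have been counted for both, which was not tested. Matches to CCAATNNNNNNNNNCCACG, the endoplasmic reticulum stress element read on both strands, were found in 3 members (4.17%), Hspa5, Hsp90b1 and Dnajc3, against 0.13% of genes. All 3 encode proteins of the endoplasmic reticulum. The 2-unit motif lies within the 3-unit form, so those counts overlap.

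Arrays within a region correlated at 0.984 or above in entorhinal cortex and 0.99 or above in hippocampus, and no 2 arrays were identical. Array 1 of sham-operated mice in hippocampus had a mean of choroid plexus markers of 8.81, against at most 6.14 on the other 25 arrays. Entorhinal array 3 of APP mice given BDNF and entorhinal array 2 of non-transgenic mice given GFP had the lowest myelin marker means, 7.14 and 7.33, against at least 7.97 on the other entorhinal arrays. Without these 3 arrays the counts of called members below were 29 in place of 29 for region, 27 in place of 25 within APP mice, 15 in place of 20 within non-transgenic mice, and 0 in the comparisons of genotype, BDNF and vector. The X-linked Xist RNA, which is made in females, was high on 18 arrays and low on 8. All 10 non-transgenic arrays were high, and each APP group had 2 of 4. With Xist as a covariate, 0 members were called for genotype, BDNF or vector.

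Entorhinal cortex and hippocampus differed in 29 of the 79 members tested. The levels of 10 rose and of 19 fell in entorhinal cortex relative to hippocampus, in the mean of the 4 matched group differences (adjusted p under 0.05). These 29 were 36.7% of the members, against 51.8% of all 14941 genes tested, with 20.6% higher and 31.3% lower among all genes. The members' median difference was -0.02 on the log2 scale, close to the -0.03 of all genes, and their median absolute difference of 0.09 was below the 0.14 of all genes. The arrays of the regions did not overlap for 1 member, Dnajc21, against 10.6% of all genes.

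**Figure D1:**
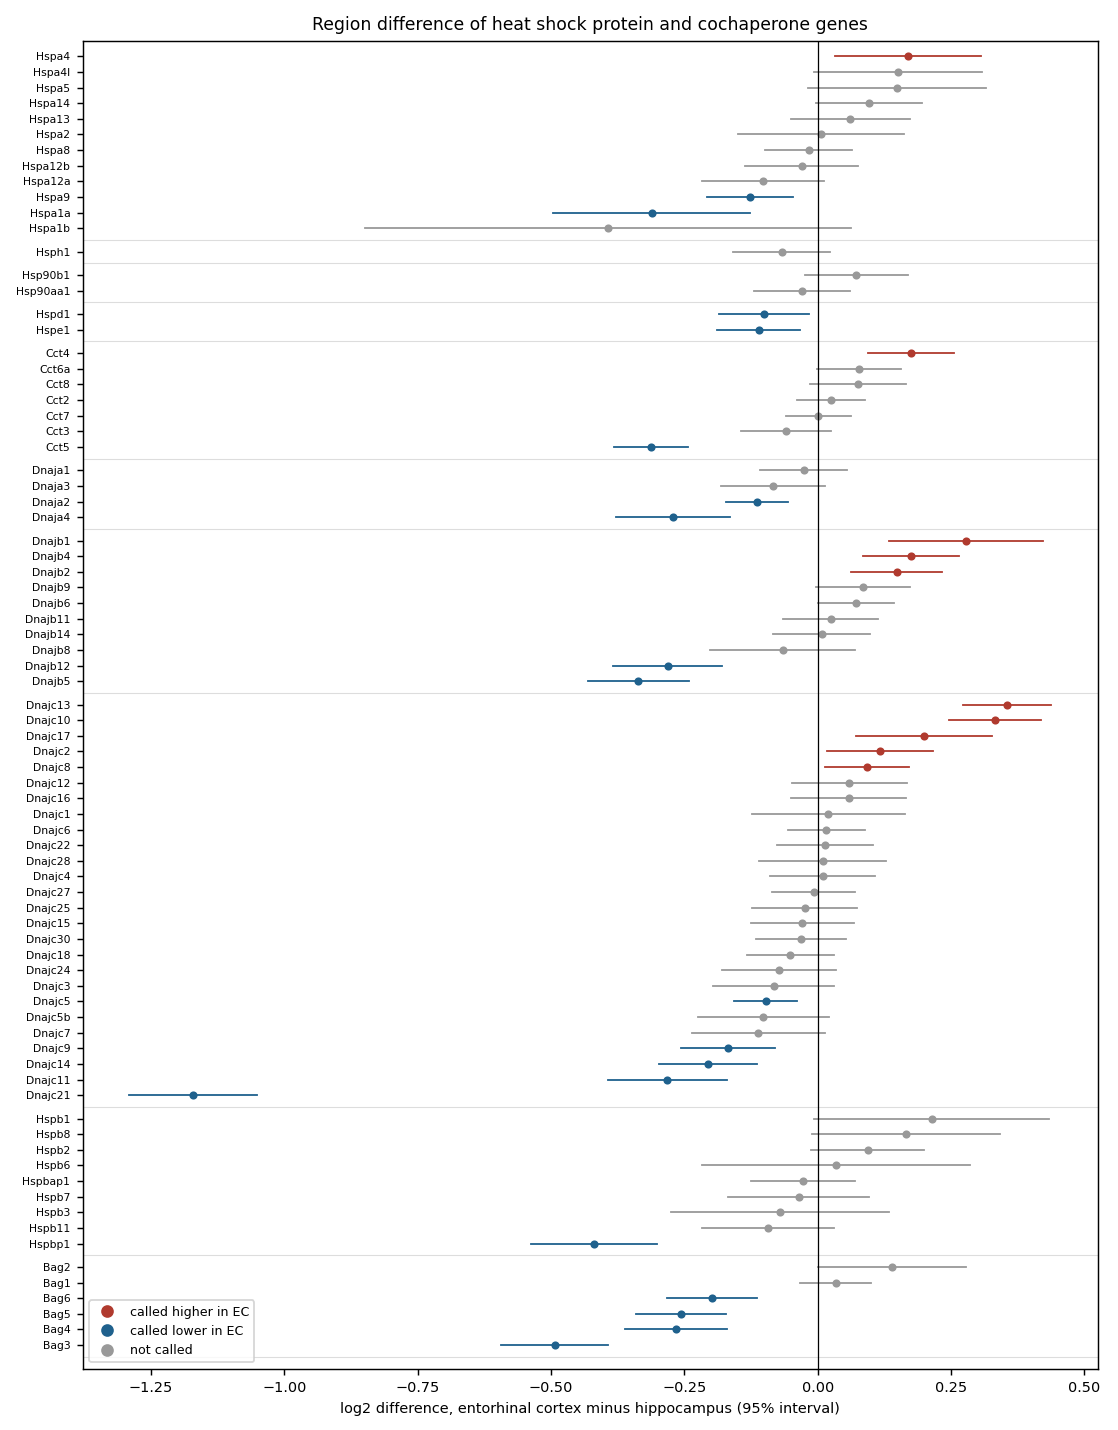
Log2 difference, entorhinal cortex minus hippocampus, for the 79 members tested (points, with 95% intervals), grouped by family; red and blue mark members called higher or lower at an adjusted p under 0.05. Dnajc21 stands at -1.17, and the other members lie between -0.49 and 0.36.

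Dnajc21, a J-domain protein whose yeast counterpart acts in the maturation of the large ribosomal subunit, differed most. Its log2 level ranged from 7.34 to 8.09 (median 7.85) on the 13 entorhinal arrays, against 8.72 to 9.15 (median 8.93) on the 13 hippocampal arrays. It was lower in entorhinal cortex, with a difference of -1.17 ± 0.06 (SE, adjusted p = 2.91e-13). The difference was -1.03 in APP mice given BDNF, -1.13 in APP mice given GFP, -1.21 in non-transgenic mice given GFP and -1.31 in sham-operated mice. A second bright probe set of Dnajc21 did not show this size: it averaged 8.21 in entorhinal cortex and 8.32 in hippocampus, a difference of -0.19 ± 0.10 (SE, adjusted p = 0.10 in a fit of every probe set). The mean of its probe sets, 3 of which were near background, differed by -0.26. The region difference of Dnajc21 thus has 2 sizes on this array.

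Of the 10 genes counted as nucleotide exchange factors of Hsp70, 5 fell in entorhinal cortex, 1 rose and 4 did not pass the test. The Bag genes were counted by symbol, and exchange activity was not tested. Among all genes 31.3% fell and 20.6% rose. Those that fell were Bag3, Bag4, Bag5, Bag6 and Hspbp1, the one that rose was Hspa4, and the differences of Bag1, Bag2, Hspa4l and Hsph1 were 0.03, 0.14, 0.15 and -0.07. Other probe sets of Hspa4l passed the test at 0.20, 0.22 and 0.96, and another gave -0.04. Another of Hsph1 passed at -0.33. Bag3, which works with the small heat shock protein Hspb8 in selective autophagy, ranged from 7.35 to 7.84 (median 7.55) in entorhinal cortex and from 7.83 to 8.32 (median 8.06) in hippocampus. The ranges touched at their ends, and Bag3 fell by 0.49 ± 0.05 (SE, adjusted p = 1.68e-08). Bag4, named as a silencer of death domains, fell by 0.27 ± 0.05, with 9.90 to 10.28 in entorhinal cortex and 10.22 to 10.55 in hippocampus, but another of its probe sets gave 0.23 (adjusted p = 0.011). Bag5, an inhibitor of Hsp70 and of the ubiquitin ligase parkin, fell by 0.26 ± 0.04. Bag6, which escorts misfolded and tail-anchored proteins, fell by 0.20 ± 0.04. Hspbp1, an exchange factor of another family, ranged from 7.38 to 7.89 (median 7.68) in entorhinal cortex, against 7.85 to 8.33 (median 8.09) in hippocampus. It fell by 0.42 ± 0.06 (adjusted p = 1.97e-06), with 1 range reaching just into the other. Hspa4, an exchange factor related to Hsp70, went the other way and rose by 0.17 ± 0.07 (adjusted p = 0.036).

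Among the Hsp70 proteins themselves, 1 of 12 rose (Hspa4) and 2 fell. Hspa1a ranged from 7.76 to 8.72 (median 8.26) in entorhinal cortex, against 8.03 to 9.03 (median 8.69) in hippocampus, and fell by 0.31 ± 0.09 (adjusted p = 0.0055). Its neighbour Hspa1b differed by -0.39 ± 0.22, which did not pass the test (adjusted p = 0.14), with 8.07 to 10.22 in entorhinal cortex and 8.90 to 10.29 in hippocampus. The pair's differences were of like size, and Hspa1b had the wider spread. Hspa9, the mitochondrial Hsp70, fell by 0.13 ± 0.04. Hspa8, the constitutive Hsp70 of the cytosol that also uncoats clathrin vesicles, had medians of 13.04 in entorhinal cortex and 13.02 in hippocampus and a difference of -0.02 (95% interval -0.10 to 0.07). Its 4 probe sets gave differences from -0.37 to 0.27, so its region value depends on the probe set. Hspa5, the Hsp70 of the endoplasmic reticulum, differed by 0.15 ± 0.08 (adjusted p = 0.13).

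The J-domain proteins moved in both directions. Of 4 Dnaja genes 2 fell, of 10 Dnajb genes 3 rose and 2 fell, and of 26 Dnajc genes 5 rose and 5 fell. Dnajc13, an endosomal protein that recruits Hspa8 to clathrin and to retromer, had the highest rise: it ranged from 9.19 to 9.52 (median 9.40) in entorhinal cortex and from 8.91 to 9.20 (median 9.01) in hippocampus. The rise was 0.36 ± 0.04 (adjusted p = 1.41e-07), and only the ends of the ranges met. Dnajc10, a disulphide reductase of the endoplasmic reticulum, ranged from 9.93 to 10.30 (median 10.14) in entorhinal cortex, against 9.62 to 9.97 (median 9.86) in hippocampus, and rose by 0.33 ± 0.04 (adjusted p = 6.73e-07). Dnajb1, the main stress-inducible partner of Hsp70, rose by 0.28 ± 0.07 (adjusted p = 0.0019), with 9.95 to 10.61 in entorhinal cortex and 9.76 to 10.34 in hippocampus. These ranges overlapped broadly. Dnajc17, a nuclear protein with an RNA-binding domain, rose by 0.20 ± 0.06, and the cytosolic Dnajb4 rose by 0.18 ± 0.04. Smaller rises were those of Dnajb2, a neuronal cochaperone that binds ubiquitin chains, by 0.15, and of Dnajc2, which sits on the ribosome, by 0.12. Dnajc8, found with splicing factors, rose by 0.09. Another probe set of Dnajc2, with a mean of 8.80 against 8.95, rose by 0.60 ± 0.11 (adjusted p = 8.08e-05). Another of Dnajc8 differed by 0.0039. The calls of Dnajc8, Dnajc2 and Hspa4 were lost under 24, 20 and 9 of the 37 alternatives run for each, most of them with 1 array left out. Dnajc17 lost its call without hippocampal array 1 of non-transgenic mice given GFP (adjusted p = 0.061).

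Dnajb5, a cytosolic Hsp40, ranged from 9.71 to 10.18 (median 9.90) in entorhinal cortex and from 10.12 to 10.43 (median 10.28) in hippocampus and fell by 0.34 ± 0.05 (adjusted p = 2e-06). Dnajb12, a membrane protein of the endoplasmic reticulum that acts in protein degradation, fell by 0.28 ± 0.05. Dnajc11, a protein of the mitochondrial cristae complex, fell by 0.28 ± 0.05. Dnaja4, a cytosolic Hsp40 of the first type, fell by 0.27 ± 0.05 and its relative Dnaja2 fell by 0.11 ± 0.03. Dnajc14, of the endoplasmic reticulum membrane, fell by 0.21 ± 0.04 and Dnajc9, a histone chaperone, fell by 0.17 ± 0.04. Dnajc5, the cysteine string protein of synaptic vesicles, fell by 0.10 ± 0.03. Other probe sets of Dnajc5 gave 0.47 and 0.49, so its sign depends on the probe set.

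Of the 7 Cct genes tested 1 rose and 1 fell. Cct5 ranged from 10.94 to 11.15 (median 11.02) in entorhinal cortex, against 11.13 to 11.44 (median 11.37) in hippocampus, and fell by 0.31 ± 0.03 (adjusted p = 6.85e-08). Cct4, another subunit of the same ring, rose by 0.17 ± 0.04 (adjusted p = 0.00067), with 10.99 to 11.26 in entorhinal cortex and 10.86 to 11.19 in hippocampus. The other 5 Cct genes did not pass on the probe set used, and Cct2, Cct3, Cct6a and Cct7 each had another probe set that fell, Cct3 by up to 0.40. Hspd1 and Hspe1, the mitochondrial chaperonin and its lid, which lie beside each other on the chromosome, had differences of -0.10 ± 0.04 and -0.11 ± 0.04, both past the test. Hsp90aa1, the inducible Hsp90 of the cytosol, differed by -0.03 (95% interval -0.12 to 0.06) and Hsp90b1, the Hsp90 of the endoplasmic reticulum, by 0.07 (-0.03 to 0.17). Both depend on the probe set. Other probe sets of Hsp90aa1, nearly as bright, rose by 0.48 (adjusted p = 9.62e-08) and 0.23 (adjusted p = 2.73e-05), and another of Hsp90b1 rose by 0.44 (adjusted p = 5.67e-06). Hsph1 differed by -0.07 (-0.16 to 0.02) on the probe set used, and another of its probe sets fell by 0.33 (adjusted p = 0.00019). None of the 8 other genes whose symbol begins with Hspb passed the test beside Hspbp1, and Hspb1, the best known small heat shock protein, differed by 0.21 (-0.01 to 0.43).

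**Figure D2:**
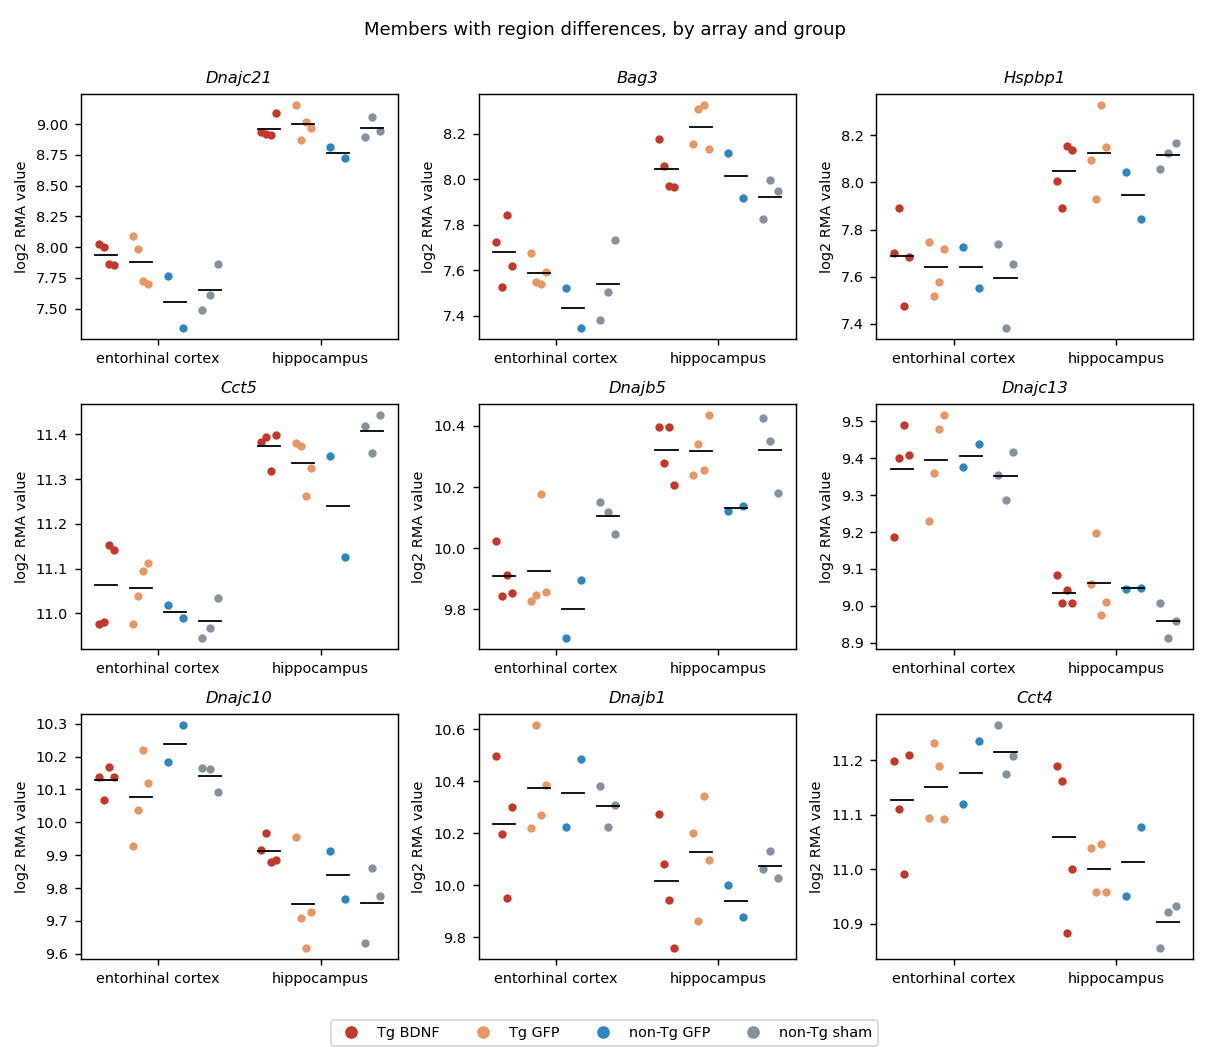
Log2 RMA value of 9 members on each array (points) with group means (bars), by region and group. Dnajc21 lies between 7.34 and 8.09 on the entorhinal arrays, below its 8.72 to 9.15 on the hippocampal arrays; the other panels show regions that meet or overlap.

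The counts by compartment and list stand against 20.6% of all genes higher, 31.3% lower and 51.8% in either direction. By compartment, 4 of the 7 mitochondrial members tested fell (Hspd1, Hspe1, Hspa9 and Dnajc11) on the probe sets used. None rose, and the median difference was -0.10. Other probe sets past the test rose in Hspa9 (0.30) and Dnajc28 (0.31) and fell in Dnaja3 (-0.45) and Dnajc11 (-0.33). Of the 8 members listed for the endoplasmic reticulum Dnajc10 rose, none fell, and 7 lay above 0 with a median of 0.07. That list does not hold Dnajb12 and Dnajc14, proteins of the same organelle's membrane that fell, and other probe sets of its members Dnajc1 and Dnajc3 fell by 0.41 each, while another of Dnajc3 rose by 0.73. Of 15 stress-inducible members 2 rose (Dnajb1 and Dnajb4), 5 fell (Hspa1a, Hspd1, Hspe1, Dnajb5 and Bag3), and the median was -0.03. Of the 4 synaptic and clathrin-uncoating members Dnajc13 rose and Dnajc5 fell, while Dnajc6 (auxilin) and Hspa8 did not pass. Of these 4, Dnajc5, Dnajc6 and Hspa8 change in sign or call with the probe set. Of 11 widely studied chaperones 1 rose and 4 fell. Among the 16 members tested with the 2-unit heat shock motif, 2 rose and 5 fell. Without it, 6 of 48 rose and 10 fell. Counts this small were read as descriptions only.

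Within APP mice 9 members rose and 16 fell in entorhinal cortex, 31.6% of members against 44.3% of all genes (17.9% higher and 26.5% lower). Within non-transgenic mice 6 rose and 14 fell, 25.3% of members against 34.7% of all genes (13.3% higher and 21.5% lower). Of the 9 and 6 that rose, 4 were shared (44.4% and 66.7%), and of the 16 and 14 that fell, 12 were shared (75% and 85.7%). The region difference of APP mice minus that of non-transgenic mice was called by limma in 0 of 79 members and in 0% of all genes. Without adjustment 3 members passed (3.8%), against 5.27% of all genes: Dnajc14 at -0.25 ± 0.09, Dnajb2 at 0.20 ± 0.08 and Cct6a at -0.18 ± 0.08 (adjusted p = 0.92 for each). These values are those of the probe set used for each gene. On another of Dnajc14, APP minus non-transgenic mice was 0.18 in entorhinal cortex and -0.0090 in hippocampus. A further one of Dnajc14 gave -0.10 and 0.14, and another of Cct6a gave 0.07 and 0.04. The values of Dnajc14 and Cct6a thus depend on the probe set. The region difference of Dnajb2 was 0.30 in APP mice given BDNF and -0.0013 in sham-operated mice.

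Several lists of cell type markers moved with region. All 11 myelin markers tested were lower in entorhinal cortex (median -1.35). Their mean log2 level per array was 7.14 to 8.86 in entorhinal cortex and 9.31 to 9.96 in hippocampus. Of 9 markers of dentate and hippocampal neurons 7 were lower and 1, Wfs1, was higher by 0.78 in entorhinal cortex (list median -2.37), with mean levels of 6.55 to 7.004 against 8.71 to 9.17 in hippocampus. Of 8 meningeal markers 7 were higher and 1, Lum, was lower by 1.11 on the log2 scale in entorhinal cortex, with list means of 8.05 to 9.29 against 7.71 to 8.42. Of 8 markers of cortical neurons 5 were higher and 3 lower in entorhinal cortex, so that list did not move 1 way. The part of all these markers in the chaperones' region differences was not tested, and in bulk tissue fewer cells of a type and less RNA per cell cannot be told apart. Of 8 general neuronal markers 1 was higher and 3 lower in entorhinal cortex, of 9 microglial markers 1 was lower, and of 7 lymphocyte markers 1 was lower. None of 5 genes of MHC class II and its invariant chain passed the test.

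No member passed the test for the APP genotype in either region. In entorhinal cortex the 8 APP arrays were set against the 5 non-transgenic arrays, which asks what differs between the genotypes. Of the 8, 4 had received BDNF, and no non-transgenic mouse had, so the transgene and BDNF are mixed here, as are vector and sham. The comparisons of GFP groups alone follow further on. Limma called 0 of 79 members, against 0.0402% of all genes (6 genes). Without adjustment 6 members passed, 7.59% of those tested, against 11.2% of all genes. Dnajb2 had the smallest p: it read 9.68, 9.59, 9.65 and 9.66 in APP mice given BDNF and 9.58, 9.60, 9.52 and 9.39 in APP mice given GFP, against 9.45 and 9.30 in non-transgenic mice given GFP and 9.42, 9.29 and 9.44 in sham-operated mice. Only 1 APP array fell inside the non-transgenic range, and the difference was 0.21 ± 0.05 (95% interval 0.09 to 0.32, adjusted p = 0.38). Dnajc21 ranged from 7.70 to 8.09 on APP arrays, against 7.34 to 7.86 on non-transgenic arrays, a difference of 0.29 ± 0.10 (adjusted p = 0.39). Hspa4l, an exchange factor abundant in testis, differed by 0.30 ± 0.13, Dnajc12 by 0.13 ± 0.05, Cct7 by 0.10 ± 0.05 and Dnajc9 by 0.12 ± 0.06, with adjusted p between 0.42 and 0.44.

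In hippocampus limma called 0 of 79 members for genotype, against 0.0602% of all genes (9 genes), and 6 members (7.59%) passed without adjustment, against 5.58% of all genes. Dnajc14 was 9.27, 9.24, 9.17 and 9.20 in APP mice given BDNF and 9.31, 9.21, 9.22 and 9.14 in APP mice given GFP, against 9.12 and 9.07 in non-transgenic mice given GFP and 9.04, 9.10 and 8.94 in sham-operated mice. On the probe set used, its arrays did not overlap between the genotypes, as was so for 0.181% of all genes. The difference was 0.17 ± 0.05 (adjusted p = 0.58). In a fit of every probe set, other probe sets of Dnajc14 differed by 0.14 (adjusted p = 0.94) and -0.0090 (adjusted p = 0.999). In entorhinal cortex the same gene was 8.66 to 9.06 on APP arrays and 8.85 to 9.05 on non-transgenic arrays. Hspa1a ranged from 8.42 to 9.03 on hippocampal APP arrays, against 8.03 to 8.69 on non-transgenic arrays, a difference of 0.36 ± 0.12 (95% interval 0.10 to 0.61, adjusted p = 0.67). In entorhinal cortex it differed by 0.25 ± 0.12 (-0.01 to 0.51). Bag3 had 7.97 to 8.32 in hippocampus of APP mice and 7.83 to 8.12 in non-transgenic mice, a difference of 0.18 ± 0.06 (adjusted p = 0.70). Hspa1b differed by 0.42 ± 0.19, Cct6a by 0.12 ± 0.05 and Hspa2, an Hsp70 first known from testis, by -0.14 ± 0.06.

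On the probe sets used, the intervals for genotype of the most studied chaperones included 0 in both regions. The exceptions were Hspa1a, Hspa1b and Bag3 in hippocampus. Hspa8 differed by 0.05 in entorhinal cortex (-0.07 to 0.17) and by 0.06 in hippocampus (-0.06 to 0.19). Other Hspa8 probe sets ranged from -0.36 to 0.37 in hippocampus and from -0.22 to -0.0042 in entorhinal cortex. The 0.37 had an adjusted p of 0.63 in a fit of every probe set. Hsp90aa1 differed by 0.06 (-0.07 to 0.19) and 0.02 (-0.12 to 0.16), Hsph1 by 0.08 (-0.06 to 0.22) and 0.06 (-0.07 to 0.19), and Hspd1 by 0.08 (-0.05 to 0.22) and 0.07 (-0.05 to 0.19). Intervals of Hspb1 were wider, at -0.39 to 0.22 in entorhinal cortex and -0.54 to 0.08 in hippocampus. Of the 15 stress-inducible members, 12 lay above 0 in entorhinal cortex (median 0.07) and 14 in hippocampus (median 0.07). Their mean level per array overlapped between APP and sham-operated mice. With non-transgenic mice given GFP it overlapped in entorhinal cortex but not in hippocampus, where those 2 arrays lay lower. In hippocampus it was 10.18 to 10.39 (APP, BDNF), 10.20 to 10.34 (APP, GFP), 10.12 to 10.14 (non-transgenic, GFP) and 10.15 to 10.27 (sham). In entorhinal cortex it was 10.06 to 10.31, 10.09 to 10.29, 9.99 to 10.16 and 10.12 to 10.18 in the same order. Over all members 49 of 79 lay above 0 in entorhinal cortex (62%), against 57.3% of all genes, and 56 (70.9%) in hippocampus, against 54.4%.

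With the vector matched, APP mice given GFP were compared with non-transgenic mice given GFP, 4 arrays against 2. Limma called 0 members in entorhinal cortex, against 0.0134% of all genes, and 0 in hippocampus, against 0.00669%. Without adjustment 4 members passed in entorhinal cortex (5.06%, against 2.5% of all genes) and 6 in hippocampus (7.59%, against 4.41%). Hspa1a, Hspb3 and Dnajc21 were in both sets. Hspa1a differed by 0.45 ± 0.18 in entorhinal cortex and 0.51 ± 0.18 in hippocampus, Hspb3, a small heat shock protein best known from muscle, by 0.49 ± 0.22 and 0.45 ± 0.17, and Dnajc21 by 0.32 ± 0.15 and 0.24 ± 0.09. Adjusted p was 0.988 or higher for each. Hspa12b differed by 0.30 ± 0.11 in entorhinal cortex. Each of these comparisons rests on 2 non-transgenic arrays, and leaving out array 1 or array 2 of these moved the values by more than 1.5 times in several cases. In entorhinal cortex Hspa1a became 0.22 without array 1 and 0.67 without array 2, Hspb3 became 0.21 and 0.77, and Dnajc21 became 0.53 and 0.11. In hippocampus Hspa1a became 0.71 and 0.31 and Hspb3 became 0.67 and 0.22, while Dnajc21 lay between 0.19 and 0.28 with any 1 array left out. Dnajc21 differed by 0.13 in entorhinal cortex and by -0.00040 in hippocampus with its probe sets averaged.

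Against all non-transgenic arrays, APP mice given GFP gave 0 called members in entorhinal cortex (0.0134% of all genes) and 0 in hippocampus (0.0402% of all genes). Without adjustment 3 members passed in entorhinal cortex (3.8%, against 4.76% of all genes) and 5 in hippocampus (6.33%, against 4.49%). Bag3 in hippocampus read 8.15, 8.31, 8.32 and 8.13 in APP mice given GFP, against 8.12 and 7.92 in non-transgenic mice given GFP and 7.83, 7.996 and 7.95 in sham-operated mice. These groups did not overlap, as in 0.917% of all genes, and the difference was 0.27 ± 0.07 (adjusted p = 0.65). In APP mice given BDNF, Bag3 read 8.18, 8.06, 7.97 and 7.97, values that overlap both groups. These genotype comparisons share control arrays with each other.

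Of the other chaperone genes 1 was called for genotype. St13, an Hsp70-interacting protein that is no member by its symbol, ranged from 10.81 to 11.08 in entorhinal cortex of APP mice, against 11.62 to 11.74 in non-transgenic mice, and fell by 0.76 ± 0.05 (adjusted p = 5.08e-05). In hippocampus it fell by 0.72 ± 0.08 (adjusted p = 0.0033). It was the only one of 22 other chaperones and cochaperones tested that was called for genotype in either region. The member Dnajb7 is separated from St13 by 1 gene, Xpnpep3, in the RefSeq order. Its probe set was below the filter, with 3.16 to 3.38 in entorhinal cortex of APP mice and 3.13 to 3.38 in non-transgenic mice, so Dnajb7 was not tested.

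BDNF delivery was tested within APP mice, 4 arrays against 4 in each region. In entorhinal cortex, where the virus was placed, limma called 0 of 79 members and 0% of all genes, and 1 member (1.27%) passed without adjustment, against 3.88% of all genes. That member was Hspb2, a muscle-enriched small heat shock protein close to the filter. It read 4.89, 4.67, 4.96 and 4.73 with BDNF, against 5.13, 4.95, 5.07 and 5.07 with GFP, a difference of -0.24 ± 0.09 (adjusted p = 0.998). Array ranges overlapped by 1 value on each side. Dnajb2 differed by 0.12 ± 0.07, Dnajb8 by -0.19 ± 0.11, Hspb8 by 0.24 ± 0.14 and Dnaja4 by 0.17 ± 0.10. Hspb8, the partner of Bag3, read 7.76, 7.11, 7.47 and 7.34 with BDNF, against 6.92, 7.27, 7.17 and 7.36 with GFP. Its groups overlapped.

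In hippocampus, which receives entorhinal axons, limma called 0 of 79 members and 0% of all genes for BDNF, and 3 members (3.8%) passed without adjustment, against 5.31% of all genes. Bag3 differed by -0.19 ± 0.08, Hspbap1 by 0.19 ± 0.08 and Hspa4 by 0.21 ± 0.09 (adjusted p = 0.90 for each). Hspa4 read 9.69, 9.83, 9.65 and 9.74 with BDNF, against 9.71, 9.61, 9.46 and 9.28 with GFP, and the groups overlapped. Cct6a read 12.16, 12.22, 12.09 and 12.16 with BDNF, against 12.005, 12.06, 12.08 and 11.95 with GFP, without overlap, as in 2.64% of all genes. Its difference was 0.13 ± 0.06 (adjusted p = 0.90). Among the most studied chaperones, Hspa8 differed by 0.02 (-0.12 to 0.17) in entorhinal cortex and 0.04 (-0.12 to 0.20) in hippocampus. Hsp90aa1 differed by 0.07 (-0.09 to 0.23) and 0.15 (-0.02 to 0.32), and Hspa5 by -0.02 (-0.28 to 0.25) and -0.01 (-0.32 to 0.29). The BDNF difference in entorhinal cortex minus that in hippocampus was called in 0 members and 0% of all genes, with 3 members passing without adjustment (3.8%, against 4.03% of all genes): Hspb2 at -0.35 ± 0.13, Bag3 at 0.28 ± 0.12 and Hspbap1 at -0.24 ± 0.11.

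The GFP vector itself was compared with the sham lesion in non-transgenic mice, 2 arrays against 3. Limma called 0 of 79 members in entorhinal cortex (0.0201% of all genes) and 0 in hippocampus (0.0335% of all genes), with 2 members (2.53%, against 2.95% of all genes) and 3 members (3.8%, against 9%) passing without adjustment. In entorhinal cortex Hspa12b, an Hsp70 relative of the vessel wall, read 4.70 and 4.83 with GFP, against 4.995, 5.18 and 5.10 with sham, a difference of -0.33 ± 0.11. Dnajb5 read 9.71 and 9.90 with GFP, against 10.15, 10.12 and 10.05 with sham, a difference of -0.30 ± 0.11. With groups of this size 19.2% of all genes in entorhinal cortex and 29% in hippocampus had arrays that did not overlap, against 24.1% and 29.1% of members. In hippocampus Cct6a differed by 0.23 ± 0.08, Hspb3 by -0.46 ± 0.18 and Bag5 by -0.23 ± 0.10 (adjusted p between 0.48 and 0.53).

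**Figure D3:**
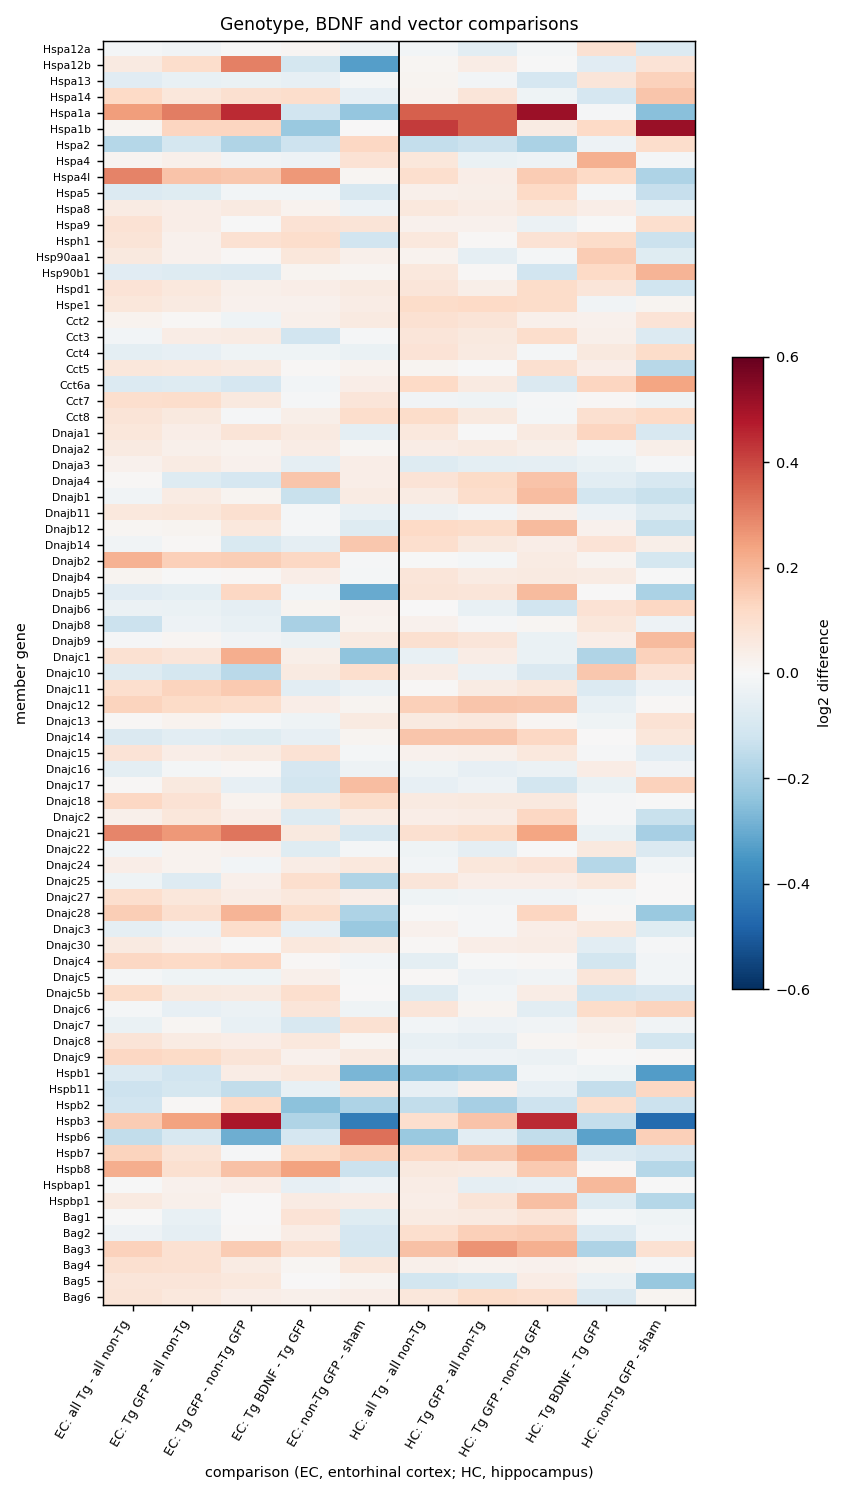
Log2 differences of the 79 members tested (rows) in 5 comparisons in entorhinal cortex and 5 in hippocampus (columns), red for higher and blue for lower in the first-named group. No cell passed the test; the strongest colours belong to Hspa1a, Hspa1b and Hspb3, which are among the 8 members that vary most between arrays of a group.

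Members differed widely in how much they varied among arrays of the same group. The median within-group SD was 0.11 over the 79 members, against 0.14 over all genes. Hspa1b had the highest, 0.59, then Hspb6 at 0.32, Hspb1 at 0.28, Hspb3 at 0.26, Hspa1a at 0.23, Hspb8 at 0.22, Hspa5 at 0.21 and Hspa4l at 0.20. Of these 8, 4 are small heat shock proteins and 4 are Hsp70 genes or relatives. Hspa1b in entorhinal cortex read 8.76, 8.11, 10.02 and 9.31 in APP mice given BDNF and 9.18, 9.42, 9.04 and 9.45 in APP mice given GFP, against 8.07 and 10.22 in non-transgenic mice given GFP and 9.09, 9.61 and 8.72 in sham-operated mice. The lowest and the highest entorhinal value thus came from the same group of 2 arrays. In hippocampus Hspa1b read 9.80, 10.04, 9.40 and 9.93 in APP mice given BDNF and 10.29, 9.59, 9.59 and 9.21 in APP mice given GFP, against 9.15 and 10.09 in non-transgenic mice given GFP and 9.09, 9.31 and 8.90 in sham-operated mice.

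The 2 entorhinal arrays with the highest Hspa1b, APP mice given BDNF 3 and non-transgenic mice given GFP 2, also had the highest Hspa2, at 10.20 and 10.32. The same 2 arrays had the lowest mean of the myelin markers, as given above. Its part in the Hspa1b values was not tested. Hspa1a did not follow: it was 8.54 and 8.21 on these arrays, within the range of the others. Hspb6, a small heat shock protein also known from muscle, was highest in entorhinal cortex on array 3 of APP mice given BDNF (6.36) and lowest on array 4 of the same group (5.38).

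**Figure D4:**
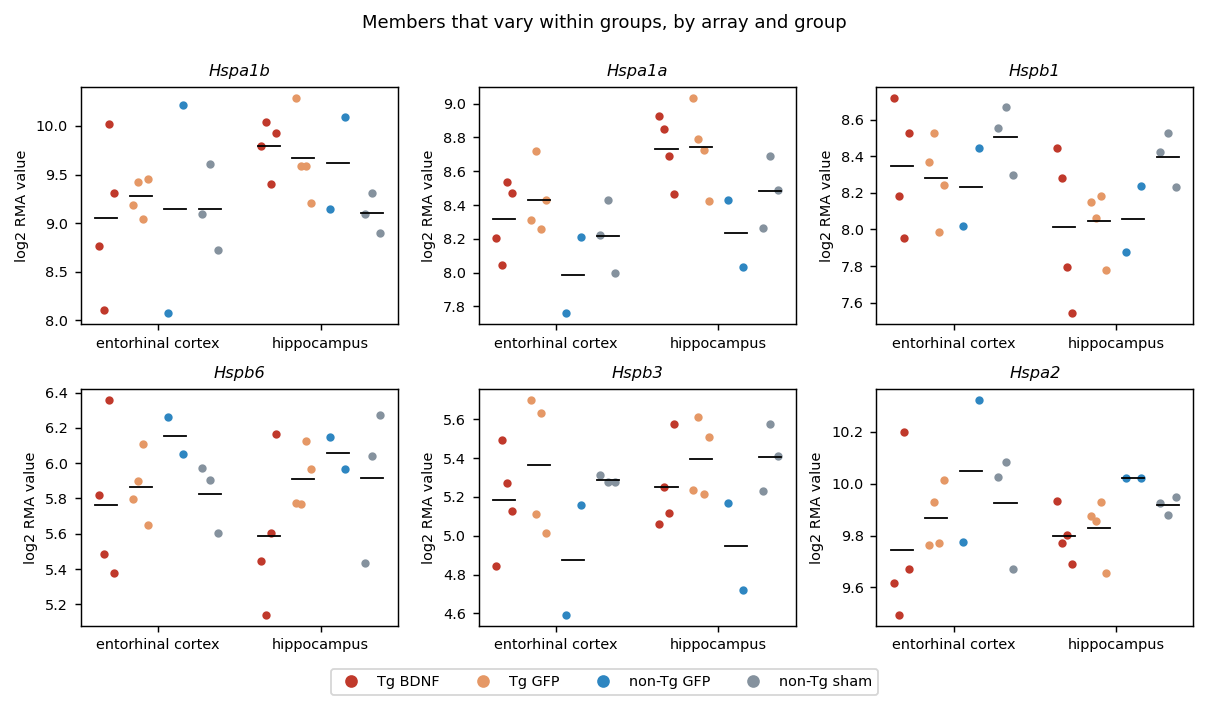
Log2 RMA value of 6 members on each array (points) with group means (bars), by region and group. Hspa1b spans 8.07 to 10.22 in entorhinal cortex, with both extremes among the 2 arrays of non-transgenic mice given GFP.

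The 8 members below the filter were Cct6b, Cct8l1, Dnajb3, Dnajb7, Dnajb13, Dnajc5g, Hspa1l and Hspb9, with mean log2 values between 3.34 and 4.06. Cct6b, Dnajb3, Dnajb13, Dnajc5g, Hspa1l and Hspb9 are best known from testis.

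The 87 members had 209 probe sets of their own, 33 members had 1, and the highest number was 7. Among the 29 members called for region, 21 had at least 1 further probe set above the filter, 45 in all. Of these, 32 had the same sign as the probe set used, 19 of them past the test. The other 13 had the opposite sign, and 5 of them passed the test, in Bag4, Dnajc17, Dnajc5 (2 probe sets) and Hspa9. Dnajc5 is the clearest case: its brightest probe set differed by -0.10, and another of nearly the same level, with means of 10.92 in entorhinal cortex and 10.43 in hippocampus, by 0.47 ± 0.08 (adjusted p = 1.78e-05). Bag4 read -0.27 on the probe set used, -0.22 on a second and 0.23 on the third. Dnajb5 and Dnaja4 fell on all 3 of their probe sets, with differences of -0.34 to -0.67 and -0.27 to -0.58. Dnajc13 rose on both of its own, by 0.36 and 0.59. Dnajc14 fell on all 3, with differences of -0.21 to -0.40. Of the 50 members tested and not called for region, 29 had another probe set above the filter, and in 19 of these at least 1 such probe set passed the test, in 9 higher, in 12 lower and in 2, Dnajc3 and Hspa8, in both directions. The highest were Hspa4l at 0.96 and Dnajb14 at 0.75 on other probe sets, against 0.15 and 0.01 on the probe sets used. The region counts thus hold for the brightest probe set of each member.

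Of 22 other chaperones and cochaperones tested 5 rose and 9 fell in entorhinal cortex, to be read against the 20.6% higher and 31.3% lower of all genes. The prefoldin subunits, which pass actin and tubulin to the Cct ring, were among those that rose: Pfdn1 by 0.58 ± 0.05, Pfdn4 by 0.33 ± 0.05, Pfdn2 by 0.32 ± 0.04 and Pfdn5 by 0.13 ± 0.05. The Hsp90 cochaperones Fkbp5 (-0.80 ± 0.08), Cdc37 (-0.43 ± 0.04), Fkbp4 (-0.41 ± 0.05), Stip1 (-0.31 ± 0.06) and Ahsa1 (-0.11 ± 0.04) fell. Stub1, the ubiquitin ligase that tags Hsp70 clients, fell by 0.24 ± 0.04. Of 18 genes of endoplasmic reticulum stress 4 rose and 4 fell, and of 13 ubiquitin and proteasome genes 5 rose and 2 fell, against the same shares. Hsf2, a heat shock factor, rose by 0.33 ± 0.09.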

How the data were processed

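RNA of 26 tissue samples was hybridised to 26 Affymetrix mouse arrays. The deposited table holds log2 values of 45101 probe sets, made by the authors with RMA per the submitters' processing notes; array medians lie between 5.51 and 5.58, and the sources used here give no version of RMA. Probe sets were named through the platform annotation: 34958 have 1 symbol, 932 several (not used) and 9211 none. Hsp90ab1 has no probe set of its own there, and Dnajc19 only shared ones, so neither was analysed here. For each gene the single-symbol probe set with the highest mean was tested with limma 3.58.1 (lmFit and eBayes, R 4.3.3; Python 3.11.15) if that mean reached the 30th percentile. Within-region fits used 13 arrays and 4 groups, region fits 26 arrays and 8 groups, with Benjamini-Hochberg adjustment over 14941 genes and a call at 0.05. There were 15 comparisons, each adjusted on its own. The fit was tested on simulated data. The number of arrays limits the precision.

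Named members were those called, the 5 with the smallest p where fewer than 3 were called, the 12 largest called region changes per direction, a list of widely studied chaperones, the 8 with the highest spread, those below the filter and those whose probe sets disagree. Members named outside these, such as Dnajc9, were chosen after their values were seen. Members and lists were chosen with earlier results of these data known. Alternatives covered the filter, the probe set, normalization, the variance model, the arrays in the fit, a replicate block, Xist as a covariate and leaving out arrays.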

Additional observations from a re-analysis of the deposited data

Results flagged for a closer look

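In 8 of the 188 groups of 4 arrays examined over 47 members, 1 array stood apart from the other 3 by more than Dixon's critical value; chance does this in about 1 in 20 groups. Dnajb5 was 10.18 on entorhinal array 3 of APP mice given GFP, against 9.83 to 9.86 on the other 3. On entorhinal array 1 of the same group Dnajc1, a J protein of the endoplasmic reticulum, was 6.17, against 6.38 to 6.39, and Hspd1 was 10.94, against 11.16 to 11.18. Dnajc3, an inhibitor of the stress kinase PERK, was 9.46 on entorhinal array 2 of that group, against 9.20 to 9.25. Hsp90aa1 was 12.64 on entorhinal array 4 of APP mice given BDNF, against 12.44 to 12.47. In hippocampus, array 4 of APP mice given BDNF stood apart for Dnajc2 at 9.11, against 8.82 to 8.86, and for Dnajc21 at 9.09, against 8.91 to 8.93. Dnajc5 was 10.74 on hippocampal array 2 of APP mice given GFP, against 10.86 to 10.88.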

How the results depend on the processing

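For the 12 comparisons of genotype, BDNF, vector and interactions, 0 members were called under each alternative run, including each array left out in turn. The region count of 29 over all groups ranged from 25 to 32 with 1 array left out and from 26 to 31 otherwise. In APP mice it ranged from 21 to 27 and from 21 to 28, against 25. In non-transgenic mice it ranged from 13 to 20 and from 14 to 23, against 20; the 13 came without hippocampal array 1 of non-transgenic mice given GFP. Without the 3 arrays that stood apart in markers, a choice made with earlier results known, the counts were 29, 27 and 15. The labels do not say whether entorhinal and hippocampal arrays came from the same mice. The region fits treated the 26 arrays as independent. Replicate numbers did not settle the pairing: deviations of same-numbered arrays across regions correlated between -0.487 and 0.479. With them as a replicate block the counts were 27, 21 and 14, the other counts stayed 0, and of the region calls named Dnajc2 was lost. The calls of Dnajc8, Dnajc2 and Hspa4 were lost under 24, 20 and 9 of 37 alternatives, and the causes were not tested. With a gene's probe sets averaged, signs reversed for Dnajc17 by region (-0.0085), for Bag5 in the region difference of APP minus non-transgenic mice (-0.026), for Dnajc1 in entorhinal cortex (-0.040) and Dnajc21 in hippocampus (-0.00040) in APP against non-transgenic mice given GFP; Dnajb4 (0.03) and Dnajb12 (-0.07) lost their region calls. Other probe sets, added after the data were seen, gave opposite region signs for Dnajc17 (-0.25), Dnajb4 (-0.12), Cct4 (-0.043), Hspa4 (-0.018), Dnajc11 (0.083), Dnajb12 (0.14), Bag4 (0.23), Dnajc5 (0.47 and 0.49), Hspa9 (0.30 and 0.027), Dnaja2 (0.16) and Hspe1 (0.0080). These opposite signs came from 13 of the 45 further probe sets above the filter. The other 32 kept the sign, 19 of them past the test. Those past the test included probe sets of Cct4 at 0.25 to 0.28 and of Hspa4 at 0.20. Signals near background, as for Hspb2 and Hspb3, limit those members.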
